A study of Mus musculus with 6 samples.

Results

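The genes described here encode the Wnt ligands, their Frizzled receptors and Lrp co-receptors, their secreted antagonists, and common target and feedback genes of the pathway, in sorted mammary tumor cells of the mouse. They were chosen by symbol: all Wnt, Fzd, Dkk and Sfrp family members, plus Lrp5, Lrp6, Wif1, Axin2, Lef1, Tcf7, Nkd1, Rnf43, Znrf3 and Notum. Of 47 such genes in the GENCODE vM21 annotation of GRCm38, 39 were in the deposited table of 22310 genes. These were 14 ligands, 10 Frizzled receptors, 2 co-receptors, 7 secreted antagonists and 6 target or feedback genes. Wnt3, Wnt3a, Wnt8a, Wnt8b, Wnt16, Dkk1, Dkk4 and Sfrp5 were not analysed here. A mean of at least 10 reads per library was reached by 33 of the 39 genes.

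Wnt proteins are secreted lipid-modified ligands that bind Frizzled receptors on the cell surface. Together with the co-receptors Lrp5 and Lrp6 they stabilize beta-catenin, which enters the nucleus and acts with the DNA-binding proteins Tcf7 and Lef1 on genes such as Axin2, many of which feed back on the pathway. Other Wnt-Frizzled pairings act on the cytoskeleton and cell polarity without beta-catenin. In the mammary gland the pathway is known for its part in branching, in basal and stem cell function and, when activated from the MMTV promoter, in tumor formation.

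The study compared metastasis-initiating cells (MICs) with the other tumor cells (nonMICs), with metabolism as its main subject. Spontaneous mammary tumors were taken from MMTV-PyMT mice of the FVB/N background, in which the mouse mammary tumor virus promoter drives the polyoma middle T oncogene mainly in mammary epithelium. The tumor cells were plated for a day in medium with serum, insulin and epidermal growth factor and then sorted by flow cytometry. The MIC group was Lin-CD24+CD90+ and the nonMIC group Lin-CD24+CD90-, where Lin- means free of the endothelial, leukocyte and erythroid antigens CD31, CD45 and Ter119. Both groups carry the same oncogene, and the labels give the genotype of both as WT. Each group had 3 libraries, numbered 1 to 3 in both. The labels do not say whether same-numbered libraries came from the same mouse, how many mice a library holds, or whether the libraries came from separate cultures, so p-values measure the spread between these libraries.

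The deposited values are read counts scaled to the same total in each library, and 1 read was worth between 0.676 and 1.11 of them. The libraries held between 31467281 and 51759769 reads, and counting error is small for all but the lowest genes. Thy1, which encodes the CD90 used for the sort, had values of 1509, 301 and 755 in MICs, in the order of replicates 1, 2 and 3 that is kept throughout, and of 16.9, 21.1 and 12.6 in nonMICs. Cd24a, the gene of the shared gate, was between 11309 and 19406 in all 6 libraries. Of cell types excluded by the sort, 4 endothelial genes summed to between 14.8 and 50.7 and 3 leukocyte genes to between 60.4 and 291. Most of the leukocyte sum was Cd68. Ptprc, the gene of CD45, was at 0 in both replicate 1 libraries and had between 3 and 14 reads in the others. Same-numbered libraries departed from their group means together, with correlations across genes of 0.573, 0.668 and 0.746 for numbers 1, 2 and 3. The mean between different numbers was -0.33, which is not separate evidence, since departures from a group mean cancel within the group. Without the replicate number in the model, limma called 0 of 22310 genes at an adjusted p-value under 0.05, edgeR called 0 and DESeq2 called 1, which was Thy1. An unadjusted limma p-value under 0.05 was reached by 1.44% of all genes and by 0 Wnt genes. With the replicate number as a block, limma called 27 genes higher and 2 lower in MICs. In that fit an unadjusted limma p-value under 0.05 was reached by 11.2% of all genes and by 3 Wnt genes. Each result below is therefore given by pair as well. A log2 fold change is on the scale of log2(value + 1), which understates the change of low genes.

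Most Wnt genes differed more between pairs than between the sorted populations, as did most genes of the table. For no gene did all 3 MIC libraries lie above, or all below, the 3 nonMIC libraries, while 2.69% of all genes were separated with MICs higher and 3.55% with MICs lower. The range of the pair means on the log2 scale exceeded the difference between MICs and nonMICs for 37 of the 39 genes (94.9%), the exceptions being Fzd5 and Wnt2, and for 86.3% of all genes. Both replicate 1 libraries lay above the other 4 for 14 of the 39 genes, among them Dkk3, Wnt5a, Wnt5b, Wnt9a and Wnt11, and for 8.77% of all genes. Both replicate 2 libraries lay below the other 4 for 13 genes, among them Wnt5a, Wnt5b, Wnt7a, Sfrp2 and Nkd1, against 13.3% of all genes. In the opposite direction, Wnt7b, Fzd8, Fzd10, Lrp6 and Notum were higher in both replicate 2 libraries than in the other 4, as were 16.9% of all genes. In bulk RNA, fewer cells of a type and less RNA per cell cannot be told apart.

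**Figure D1:**
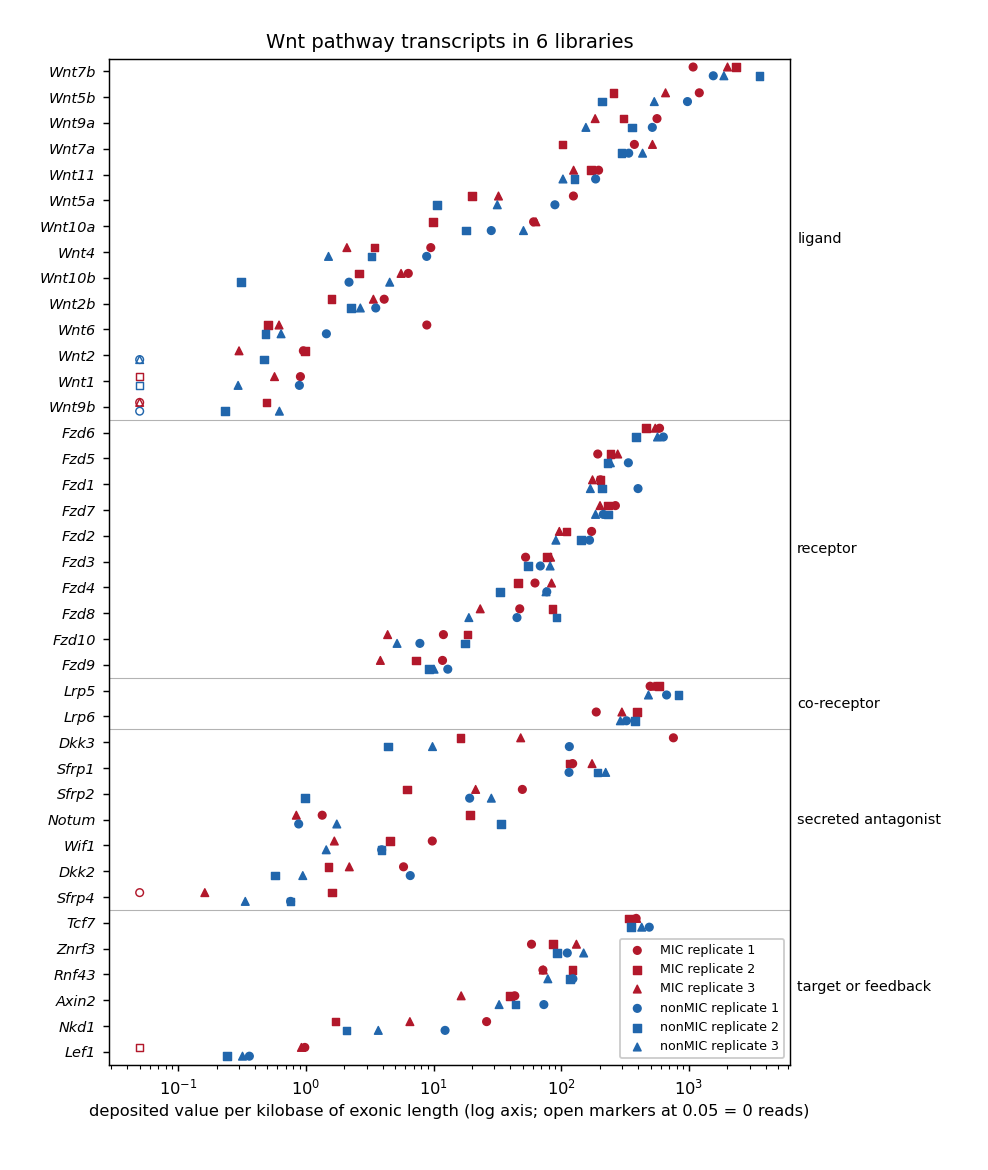
Deposited value per kilobase of exonic length (log axis) of the 39 Wnt pathway genes in each of the 6 libraries, with MIC libraries in red, nonMIC libraries in blue and the marker shape giving the replicate number. For no gene do the red and the blue markers separate fully, and for 14 genes both circles (replicate 1) lie to the right of the other 4 markers.

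Within pairs, 9 of the 39 genes were higher in MICs in all 3 pairs, against 12.5% of all genes, and 4 were lower in all 3, against 18.8%. The 9 genes were the ligands Wnt2, Wnt4, Wnt5a, Wnt5b, Wnt10b and Wnt11, the receptor Fzd7, and the secreted antagonists Dkk3 and Wif1. The 4 genes were the receptor Fzd9 and the target and feedback genes Axin2, Tcf7 and Znrf3. Among genes with a mean of at least 10 reads, the counts were 8 of 33 higher, against 13.7% of such genes, and 4 of 33 lower, against 24.3%. By role, 6 of 14 ligands were higher and 0 lower in all 3 pairs, or 5 higher with TMM factors or quantile normalization, where Wnt4 no longer was. Of the 6 target or feedback genes 0 were higher and 3 lower, or 4 lower with TMM factors, which added Rnf43. The median log2 fold change, from limma, was 0.20 over the 14 ligands and -0.22 over the 6 target or feedback genes, beside -0.04 over all genes of the table. Of the 39 log2 fold changes, 23 were above 0 and 16 below, with a median of 0.05. The remaining 26 genes were of mixed direction.

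**Figure D2:**
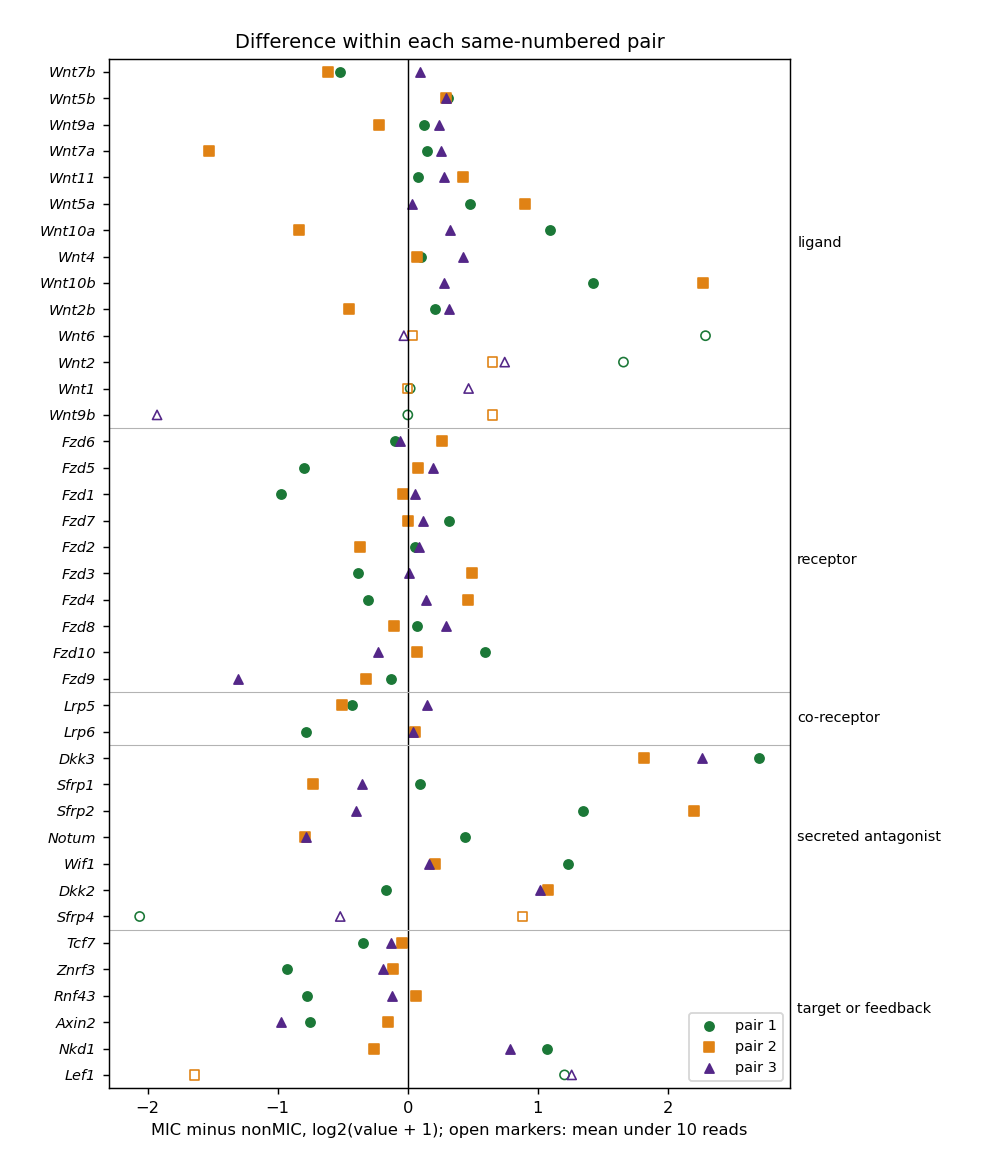
Difference between the MIC and the nonMIC library of each same-numbered pair, in units of log2(value + 1), for the 39 Wnt pathway genes grouped by role; open markers have a mean under 10 reads. The 3 markers of Dkk3 lie between 1.81 and 2.70, those of Wnt5b between 0.29 and 0.31, and those of Axin2 between -0.98 and -0.15.

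Among the ligands, Wnt7b was the most abundant per kilobase of exonic length. Its mean level was 2066 per kilobase, or 56.6% of the summed level of the 14 ligands, and it was the highest ligand in 5 of 6 libraries. Wnt7b is a ligand of the beta-catenin route and is known to be made by mammary epithelium. Wnt5b followed with a mean level of 639 per kilobase and was the highest ligand in MIC replicate 1. Next came Wnt9a at 347 and Wnt7a at 343 per kilobase, whose levels did not differ beyond the spread between libraries, then Wnt11 at 151, Wnt5a at 51.4 and Wnt10a at 38.5. The other 7 ligands had mean levels under 5 per kilobase.

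Wnt7b itself was not separated by the sort. Its values were 5276, 11413 and 9810 in MICs and 7588, 17435 and 9188 in nonMICs. It was lower in MICs in pairs 1 and 2, by 1.44-fold and 1.53-fold, and 1.07-fold higher in pair 3. The log2 fold change was -0.35 (SE 0.397, n = 3 per group; limma, no block), and with the replicate block it had an SE of 0.186 and an adjusted p of 0.494. A stretch of 6.6% of its annotated exonic length is shared with the antisense gene AU022754, and the counting is not stated to have used strand.

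Wnt5b, a ligand best known for signaling without beta-catenin, differed between MICs and nonMICs by nearly the same factor in each pair. Its values were 3196, 678 and 1739 in MICs and 2583, 553 and 1419.5 in nonMICs, so MICs were higher by 1.24-fold, 1.23-fold and 1.23-fold. The spread between pairs was far wider, the pair means spanning 2.23 on the log2 scale, and the groups overlapped. The highest library, MIC replicate 1, held 5.78 times the lowest, nonMIC replicate 2. The log2 fold change was 0.30, with an SE of 0.691 without the block and 0.161 with it (limma, n = 3 per group). With the block its 95% confidence interval ran from -0.05 to 0.65 and the adjusted p was 0.496.

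Wnt5a, the closest relative of Wnt5b and likewise known for beta-catenin-independent signaling, was higher in MICs by 1.40-fold in pair 1, 1.88-fold in pair 2 and 1.02-fold in pair 3. Its values were 974, 157 and 252 in MICs and 697, 83.5 and 247 in nonMICs. The difference in pair 3 was negligible, and the replicate 1 libraries of both populations stood above the rest. The log2 fold change was 0.47 (SE 0.897 without the block, 0.232 with it), and the adjusted p with the block was 0.458 (limma).

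Wnt11, a ligand of the planar polarity branch, had values of 811, 706 and 517 in MICs and of 768, 526 and 426 in nonMICs. MICs were higher by 1.06-fold, 1.34-fold and 1.21-fold, and the groups overlapped. The log2 fold change was 0.26 with an SE of 0.183 and an adjusted p of 0.599 in the blocked limma fit, and between 0.07 and 0.49 when a library was left out without the block. Wnt5a and Wnt11 share 4.6% and 8.8% of their exonic length with a gene on the opposite strand.

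Low ligands made up the remainder of the group that was higher in all 3 pairs. Wnt10b, a beta-catenin ligand known as a target of mouse mammary tumor virus insertion, had 20, 8 and 28 reads in MICs and 7, 1 and 22 reads in nonMICs. Its log2 fold change was 1.32 (blocked limma, SE 0.539, adjusted p 0.423), and 0.49 without nonMIC replicate 2 in the fit without the block. Wnt4, the ligand induced by progesterone in the mammary gland, had 37, 13 and 13 reads in MICs and 35, 13 and 9 in nonMICs, a log2 fold change of 0.20 (adjusted p 0.888 in the blocked limma fit). Wnt2 had at most 2 reads in any library, so its direction cannot be told from counting error. Under rescaling by TMM factors, Wnt4 was no longer higher in all 3 pairs.

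The other ligands went in mixed directions. Wnt7a had values of 1185, 324 and 1642 in MICs and of 1070, 938 and 1374 in nonMICs, and MIC replicate 2 was the lowest of the 6 libraries. Wnt9a had 1870, 1021 and 613 in MICs and 1719, 1192 and 519 in nonMICs, with a log2 fold change of 0.05 (blocked limma, SE 0.175). Wnt10a had 149.9, 24.5 and 156 in MICs and 69.9, 44.4 and 125 in nonMICs, higher in MICs in pairs 1 and 3 only. Wnt2b held between 6 and 21 reads in every library. Wnt6 had 18 reads in MIC replicate 1 and at most 3 in the other libraries, and Wnt1 and Wnt9b had at most 4 reads in any library.

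**Figure D3:**
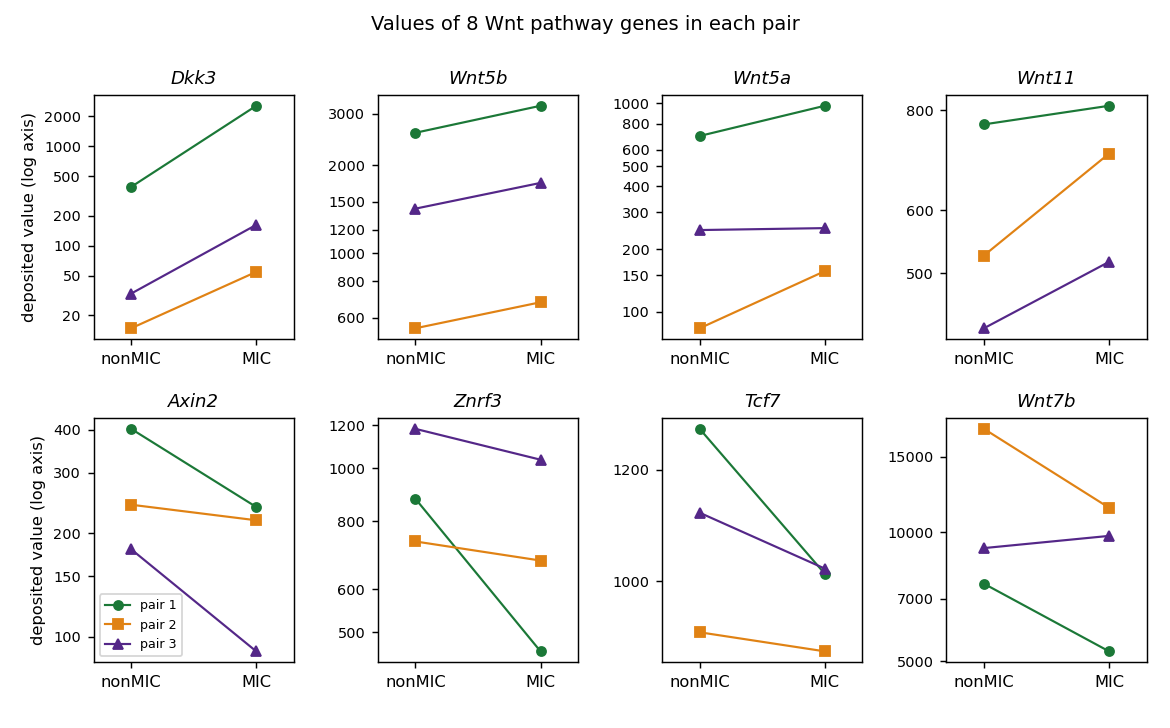
Deposited value (log axis, scaled separately in each panel) of 8 Wnt pathway genes in the nonMIC and the MIC library of each pair. The lines of Dkk3, Wnt5b, Wnt5a and Wnt11 go up from nonMIC to MIC in every pair, those of Axin2, Znrf3 and Tcf7 go down in every pair, and Wnt7b goes down in 2 of 3.

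Promoter sequences show where the core motif bound by Tcf and Lef proteins occurs near these genes. The RefSeq promoter table for GRCm38.p6 held 25 of the 39 genes, in 33 windows of 250 bases before to 50 bases after a start site, and the letters CTTTGAT or their reverse complement ATCAAAG were found in 2 of them, or 6.06%, against 3.21% of all 32851 windows. These were the window of 1 of 3 start sites of Wnt5b and of 1 of 2 start sites of Wnt11. With 2 windows, the share is too coarse to compare with that of all windows, and Dkk3 was not among the 25 genes. Whether the letters are bound was not tested. The 2 windows are printed with that of Axin2, a target gene, which held no such letters. A window without them does not bear on sites elsewhere in the gene. Each printed sequence is the 250 bases before the start site, on the strand of the gene, with the motif in capitals. The match began 71 bases before the start site in Wnt5b and 51 bases before it in Wnt11.
Wnt5b (chr6:119449387-119449636, minus strand): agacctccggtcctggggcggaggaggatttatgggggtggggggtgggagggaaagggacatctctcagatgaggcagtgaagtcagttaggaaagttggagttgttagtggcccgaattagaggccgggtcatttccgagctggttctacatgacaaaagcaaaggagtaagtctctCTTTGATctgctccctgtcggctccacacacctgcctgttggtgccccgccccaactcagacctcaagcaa
Wnt11 (chr7:98834862-98835111, plus strand): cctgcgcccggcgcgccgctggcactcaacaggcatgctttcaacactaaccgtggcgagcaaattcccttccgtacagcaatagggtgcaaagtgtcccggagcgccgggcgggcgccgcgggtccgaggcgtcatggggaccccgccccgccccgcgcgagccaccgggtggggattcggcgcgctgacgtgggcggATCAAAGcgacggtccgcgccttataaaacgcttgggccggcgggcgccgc
Axin2 (chr11:108920099-108920348, plus strand): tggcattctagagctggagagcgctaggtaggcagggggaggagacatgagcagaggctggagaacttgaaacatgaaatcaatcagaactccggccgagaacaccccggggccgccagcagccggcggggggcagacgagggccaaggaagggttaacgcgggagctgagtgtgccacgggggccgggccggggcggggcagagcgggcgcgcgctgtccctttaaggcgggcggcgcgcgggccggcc

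Among the receptors, Fzd6 was the most abundant per kilobase in all 6 libraries, with a mean level of 529, followed by Fzd5 at 253, Fzd1 at 226 and Fzd7 at 221, which did not differ beyond the spread between libraries. Fzd2 had a level of 130, Fzd3 of 69.5, Fzd4 of 63.0 and Fzd8 of 51.9, while Fzd10 and Fzd9 were near 10 at 10.9 and 9.18. No receptor was called in any fit. Their log2 fold changes ran from -0.59 for Fzd9 to 0.15 for Fzd7 and Fzd10.

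Fzd6, a receptor known for planar polarity, had values of 2834, 2218 and 2620.3 in MICs and of 3034, 1846 and 2731 in nonMICs. Its log2 fold change of 0.04 (blocked limma, SE 0.163, 95% confidence interval -0.32 to 0.39) was within the spread of the libraries. Fzd5 had 1335, 1679.5 and 1913 in MICs and 2318, 1594 and 1676 in nonMICs, a 1.74-fold lower value in MICs in pair 1 and a higher one in the other pairs. Fzd1 showed the same order in pair 1, with a value of 851 in MIC replicate 1 and of 1674 in nonMIC replicate 1, while its other 4 libraries lay between 709 and 874. An annotated gene on the opposite strand covers 17.8% of the exonic length of Fzd5 and 3.2% of that of Fzd6.

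The remaining receptors were of mixed direction. Fzd8 had values of 283, 509 and 139 in MICs and of 269, 547 and 113 in nonMICs, and thus followed the pairs, as did Fzd10 with 38.8, 60.1 and 14.2 in MICs and 25.4, 57.1 and 16.8 in nonMICs. For both, the replicate 2 libraries were the highest and the replicate 3 libraries the lowest. Fzd2 lay between 332 and 633 and Fzd3 between 673 and 1056 over the 6 libraries, with log2 fold changes of -0.08 and 0.04 (blocked limma). Fzd4, the receptor also known for the ligand Norrin, had values of 418, 308 and 564 in MICs and of 518, 223 and 511 in nonMICs, lowest in replicate 2 of each population.

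Fzd7, a Frizzled protein known from mammary basal cells, was the only receptor higher in MICs in all 3 pairs. Its values were 1202, 1051 and 912 in MICs and 966, 1048 and 841 in nonMICs. The difference in pair 2 was 1.00-fold to 3 digits, and with TMM factors it was no longer higher in all 3 pairs. Fzd9 was the only receptor lower in all 3 pairs, with 25, 15 and 13 reads in MICs and 28, 20 and 33 reads in nonMICs. Its log2 fold change was -0.59 (blocked limma, SE 0.451, adjusted p 0.633).

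The co-receptors Lrp5 and Lrp6, which carry the Wnt signal together with a Frizzled protein, had mean levels of 598 and 311 per kilobase. Lrp5 had values of 4832, 5671 and 5197 in MICs and of 6503, 8056 and 4689 in nonMICs, lower in MICs in pairs 1 and 2. Lrp6 had 2568.5, 5349 and 4078 in MICs and 4430.4, 5145 and 3967.5 in nonMICs, and MIC replicate 1 alone was low. Their log2 fold changes were -0.26 (SE 0.178) and -0.23 (SE 0.191) in the blocked limma fit, with adjusted p-values of 0.586 and 0.658.

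Dkk3 was the one Wnt gene that passed the threshold in any fit, and it rose in MICs in the fits with the replicate block. It encodes a secreted protein of the Dickkopf family whose action on the pathway is less settled than that of Dkk1, which blocks the Lrp co-receptors. The gene (ENSMUSG00000030772) lies at chr7:112116017-112159057 in GRCm38. Its values were 2536, 54.5 and 162 in MICs and 388, 14.8 and 33.0 in nonMICs, from 2352, 49 and 239 reads in MICs and 367, 14 and 47 in nonMICs. MICs were higher by 6.53-fold, 3.68-fold and 4.90-fold in pairs 1, 2 and 3. The pairs differed more than the populations, the pair means spanning 5.07 on the log2 scale beside a log2 fold change of 2.26. The highest library, MIC replicate 1, held 171 times the lowest, nonMIC replicate 2, a ratio that includes the difference between populations. NonMIC replicate 1 exceeded both MIC replicates 2 and 3, so the groups overlapped.

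With the replicate block, the log2 fold change of Dkk3 was 2.26 with an SE of 0.279, a 95% confidence interval of 1.66 to 2.86 and an adjusted p of 0.0042 (limma). The share of all genes called higher in that fit was 0.121%, and 1 of 39 Wnt genes was among them, while 0.00896% of all genes and 0 Wnt genes were called lower. Without the block the fold change was the same and the SE was 1.60, and Dkk3 was not called. On the recovered reads with the block, the log2 fold change was 2.42 in edgeR (adjusted p 1.09e-18), where 1.04% of all genes were called higher and 0.372% lower, and 2.44 in DESeq2 (adjusted p 1.63e-15), where 0.735% of the 14957 genes with an adjusted p were called higher and 0.154% lower. When a pair was left out of the blocked limma fit, the adjusted p of Dkk3 was 0.492 without pair 1, 0.00104 without pair 2 and 0.453 without pair 3, with log2 fold changes of 2.04, 2.48 and 2.26. The unadjusted limma p-values of Dkk3 were 0.00057, 6.065e-07 and 0.005 in that order. Those fits called 11, 59 and 0 of all genes. Without MIC replicate 1 and without the block, the log2 fold change was 0.68.

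Several transcripts of basal or myoepithelial cells were higher in the same MIC libraries as Dkk3. All 8 of the 8 listed basal genes were in the table, 5 were higher in MICs in all 3 pairs, 4 were called in the blocked limma fit (Acta2, Cnn1, Myh11 and Krt5), and none was at 0 in a library. The blocked edgeR fit called 5, adding Trp63. Their summed value was 424539, 24227 and 72111 in MICs and 143882, 24086 and 47086 in nonMICs, so that the sum hardly differed in pair 2, where it consists mostly of Krt17, at 15878 in MICs and 17303 in nonMICs. Krt14 and Oxtr were also lower in MICs in that pair, at 2946 against 5507 and at 8.9 against 14.8. The 4 genes called in limma were each higher in MICs in that pair too, at 403 against 97.2 for Krt5, 536 against 119 for Cnn1 and 310.3 against 64.4 for Myh11. Acta2, the smooth muscle actin of myoepithelial cells, alone had values of 230570, 3765 and 9839 in MICs and of 48582, 724 and 1581 in nonMICs, so that, like Dkk3, it was higher in MICs in every pair and highest in replicate 1. Of 8 fibroblast genes, all were in the table, 4 were higher in all 3 pairs, and 0 were called in the blocked limma fit and 2, Col1a2 and Dcn, in the blocked edgeR fit. Their sum was 1.87-fold and 3.42-fold higher in MICs in pairs 1 and 3 and 1.10-fold lower in pair 2. It was between 673 and 2167 in MICs and between 588 and 1157 in nonMICs, and Lum was at 0 in nonMIC replicate 2. The sum of 6 luminal genes was between 211672 and 590209 in MICs and between 277222 and 698538 in nonMICs, with 0 genes higher and 2 lower in all 3 pairs. Of these luminal genes, 0 were called in the blocked limma fit and 1, Elf5, was called lower in MICs in the blocked edgeR fit (adjusted p 0.00045). The part of basal or fibroblast cells in the difference of Dkk3 was not tested.

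**Figure D4:**
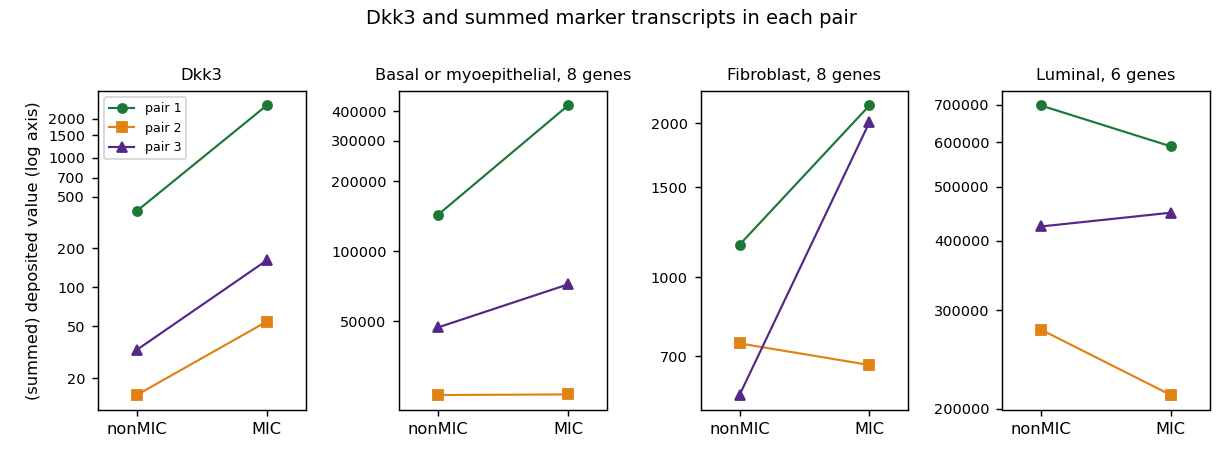
Deposited value of Dkk3 and summed deposited value of 8 basal or myoepithelial, 8 fibroblast and 6 luminal genes (log axes, each on its own scale) in the nonMIC and the MIC library of each pair. Dkk3 and the basal sum are highest in MIC replicate 1, at 2536 and 424539. In pair 2 the basal sum, which consists mostly of Krt17, is 24086 in nonMICs and 24227 in MICs.

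The other antagonists were not called. Sfrp1, a decoy that binds Wnt ligands, was the most abundant antagonist per kilobase in 4 of 6 libraries and Dkk3 in the replicate 1 libraries, and their mean levels were 157 and 158 per kilobase. Sfrp1 had values of 537, 508 and 761 in MICs and of 503, 842 and 973 in nonMICs, lower in MICs in pairs 2 and 3, with a log2 fold change of -0.33 (blocked limma, SE 0.1998, adjusted p 0.539). Its relative Sfrp2, also known from stromal cells, had 99, 12 and 68 reads in MICs and 39, 2 and 87 reads in nonMICs, a log2 fold change of 1.05 with an SE of 0.497 and an adjusted p of 0.451 in the blocked limma fit. The MIC library was the higher one except in pair 3, and 16.1% of its exonic length is shared with an antisense gene.

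Wif1, a secreted inhibitor that binds Wnt ligands, had 22, 10 and 6 reads in MICs and 9, 9 and 5 reads in nonMICs, and its log2 fold change was 0.53 (blocked limma, adjusted p 0.711). Dkk2 had 20, 5 and 12 reads in MICs and 23, 2 and 5 in nonMICs, higher in MICs in pairs 2 and 3 only. Sfrp4 had at most 6 reads in any library. The summed level of the 7 antagonists was 944, 166 and 249 per kilobase in MICs and 262, 237 and 265 in nonMICs, so that MIC replicate 1 stood above all other libraries and MIC replicate 2 below them.

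Notum, an enzyme that removes the lipid from Wnt proteins and is itself a target of the pathway, was confined to 1 pair. It had 42 and 77 reads in the MIC and nonMIC libraries of replicate 2 and between 2 and 6 reads in the other 4 libraries. In replicate 2 it was 1.74-fold lower in MICs, and its log2 fold change was -0.38 (blocked limma, SE 0.520, adjusted p 0.807). Annotated antisense genes overlap its exons, of which the larger covers 29.4% of the exonic length.

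Of the 6 target and feedback genes, Axin2, Znrf3 and Tcf7 were lower in MICs in every pair, and none passed the test. Axin2 (ENSMUSG00000000142, chr11:108920349-108950783), the scaffold of the beta-catenin destruction complex that is widely read as a measure of pathway output, had values of 238, 218 and 90.6 in MICs and of 402, 242 and 179.5 in nonMICs. It was lower in MICs by 1.69-fold, 1.11-fold and 1.98-fold, with overlap between the groups because nonMIC replicate 3 lay below MIC replicates 1 and 2. The log2 fold change was -0.63 (SE 0.498 without the block), and it was -0.19 without MIC replicate 3 and -0.31 without nonMIC replicate 1. An antisense gene shares 3.8% of the exonic length. With the block, its SE was 0.248 and its 95% confidence interval ran from -1.16 to -0.09, but the adjusted p was 0.422 in limma, 0.228 in edgeR and 0.32 in DESeq2.

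Znrf3 and Rnf43 encode ubiquitin ligases that clear Frizzled receptors from the cell surface. Znrf3 had values of 462, 677 and 1037 in MICs and of 879.5, 734 and 1182 in nonMICs, lower in MICs by 1.91-fold, 1.08-fold and 1.14-fold. Its log2 fold change was -0.41 (blocked limma, SE 0.1999, adjusted p 0.455). Rnf43 had 471, 804 and 474 in MICs and 809, 769 and 515 in nonMICs, lower in pairs 1 and 3 and 1.05-fold higher in pair 2, with a log2 fold change of -0.28 (blocked limma, SE 0.205, adjusted p 0.618). For both genes most of the difference lay in pair 1.

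Tcf7 and Lef1 encode DNA-binding partners of beta-catenin and were at opposite ends of the range of levels. Tcf7 had a mean level of 397 per kilobase and was the highest gene of its group in all 6 libraries, with values of 1012.5, 892 and 1021 in MICs and of 1283, 920.2 and 1119 in nonMICs. It was lower in MICs by 1.27-fold, 1.03-fold and 1.10-fold (log2 fold change -0.17, SE 0.1695, adjusted p 0.720 in the blocked limma fit). Lef1 was near the limit of counting, with 8, 0 and 12 reads in MICs and 3, 2 and 4 in nonMICs, and 13.7% of its exonic length is shared with an antisense gene.

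Nkd1, an inhibitor of the Wnt signal relay protein Dishevelled and a target of the pathway, was of mixed direction, as was Lef1, the MIC library being the lower one only in pair 2. It had 110, 7 and 44 reads in MICs and 53, 9 and 24 reads in nonMICs. MICs were higher by 2.11-fold in pair 1 and 1.77-fold in pair 3 and lower by 1.22-fold in pair 2. Its log2 fold change was 0.53 (blocked limma, SE 0.433, adjusted p 0.650).

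**Figure D5:**
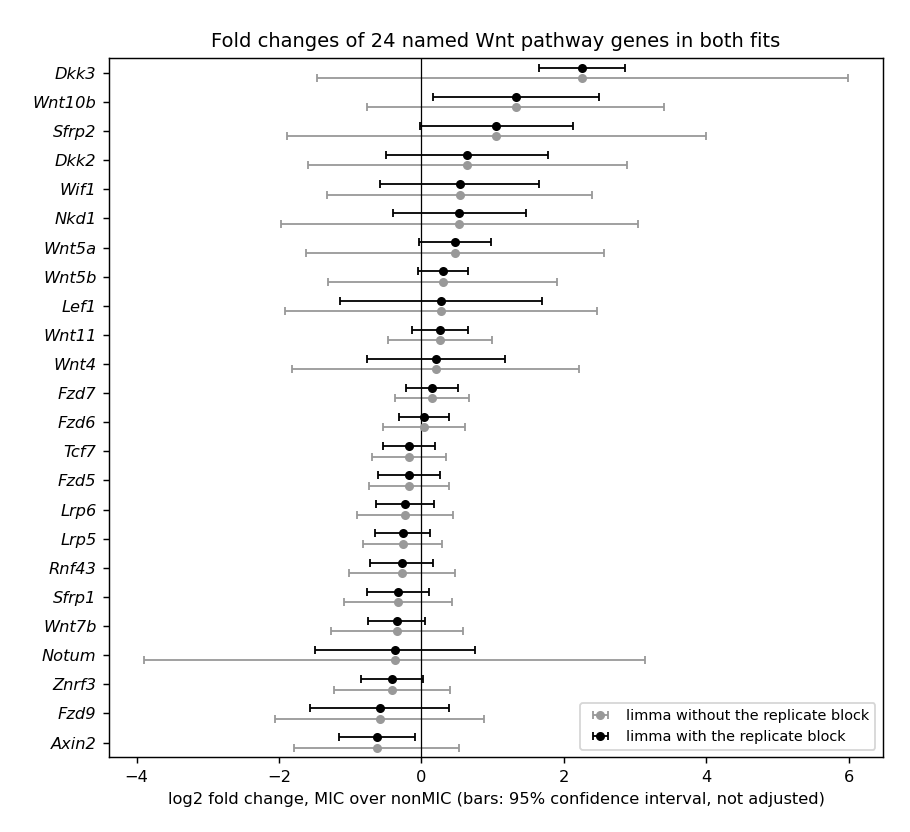
Log2 fold change of MIC over nonMIC, with its 95% confidence interval (not adjusted), for 24 Wnt pathway genes in the limma fit without the replicate block (grey) and with it (black). With the block, the intervals of Dkk3, Wnt10b and Axin2 do not reach 0, and among these the adjusted p-value is under 0.05 for Dkk3 alone. Of all 39 Wnt pathway genes, 3 had an unadjusted limma p-value under 0.05 with the block, against 11.2% of all genes of the table.

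Other genes of the pathway were taken from a list of 70, of which 66 were in the table. In the limma fits with and without the block, 0 of the 66 were called, and 13 had an unadjusted limma p-value under 0.05 with the block, against 11.2% of all genes. In edgeR and DESeq2 with the block, 1 was called, Gpc3, a proteoglycan that can hold Wnt ligands at the cell surface. Gpc3 had 134, 31 and 17 reads in MICs and 17, 12 and 4 reads in nonMICs, higher in MICs in every pair. Its log2 fold change was 2.01 (blocked limma, SE 0.470, adjusted p 0.222; edgeR adjusted p 0.000231; DESeq2 adjusted p 0.018).

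By direction, 4 of the 66 genes were higher in MICs in all 3 pairs, or 6.06% against 12.5% of all genes, and 24 were lower, or 36.4% against 18.8%. Among genes with a mean of at least 10 reads, 24 of 60 were lower, or 40% against 24.3%. The nuclear genes gave 9 of 13 lower and 0 higher. The lower ones were Bcl9l and Bcl9, which link beta-catenin to its coactivators, Pygo2, Tcf7l1, Ctnnb1, and the corepressor Tle3 with its relatives Tle1, Tle2 and Tle4. Bcl9l had values of 1783.5, 3325 and 2229 in MICs and of 4015.5, 5030.2 and 2424.5 in nonMICs, a log2 fold change of -0.63 (blocked limma, SE 0.197, adjusted p 0.417; edgeR adjusted p 0.0851). The destruction complex and Dishevelled genes gave 7 of 16 lower and 0 higher, with log2 fold changes of -0.36 for Axin1, -0.39 for Dvl3 and -0.38 for Csnk1d. Ctnnb1, which encodes beta-catenin, had a log2 fold change of -0.12 (blocked limma, adjusted p 0.829). None of these was called in any fit.

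Among secretion genes, Wls, the carrier that brings Wnt ligands to the cell surface, had values of 7134, 6994 and 4554 in MICs and of 3856, 3846 and 4600.1 in nonMICs. Pairs 1 and 2 were higher in MICs and pair 3 was level, and the log2 fold change was 0.58 (blocked limma, SE 0.196, adjusted p 0.417). Of the R-spondin receptors, Lgr4 and Lgr6 were expressed at over 1000 reads in every library, whereas Lgr5 had at most 20 reads. Among other targets, Ccnd1, Cd44 and Myc had log2 fold changes of -0.17, 0.06 and -0.31, with adjusted p-values of 0.766, 0.936 and 0.498 in the blocked limma fit. Nkd2 had a log2 fold change of -0.51 and an adjusted p of 0.417 in that fit. Nkd2 and Myc were lower in MICs in all 3 pairs, and Ascl2, with a mean of 4.33 reads, was higher.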

How the data were processed

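RNA was measured in 6 libraries, 3 MIC and 3 nonMIC, prepared per the labels with the RNeasy Micro kit and the TruSeq stranded mRNA method and sequenced with paired reads. The deposited signal is the authors' gene counts scaled to the library total. The study's methods name Bowtie2 and samtools on the mouse transcriptome (GRCm38/mm10), whereas the submitters' processing notes name STAR and HTSeq, and the versions and the use of strand in counting are not given in the sources used here. Between 99.9852% and 100% of a library's values were whole multiples, to 0.01, of the worth of 1 read, which returned the read numbers. Reads were not collapsed by molecular identifiers, so read numbers bear on counting error only.

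Symbols and exonic lengths (the union of exons) came from GENCODE vM21, and a level per kilobase is the deposited value divided by that length. The members and all gene lists were chosen with earlier results of these data known. The main fit was made on log2(value + 1) by limma 3.58.1 under R 4.3.3, with a trend and no block, over all 22310 genes, with Benjamini-Hochberg adjustment at 0.05. The numbers pair the libraries, since every same-number correlation was above 0.1, and the blocked fit is given beside it. edgeR 4.0.16 (quasi-likelihood) and DESeq2 1.42.0 used the recovered reads. The tests were run on simulated data first. The main fit was designed for a normalized unit and was kept.

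Genes named with full values were those with a mean of at least 10 reads and the same direction in 3 pairs, the target, feedback and co-receptor genes, the 2 highest genes per kilobase of the Wnt, Fzd, Dkk and Sfrp families, and any gene called. Genes of the 70-gene pathway list named in the text, and Fzd1, Fzd4, Fzd8, Fzd10, Wnt7a, Wnt9a and Wnt10a, were chosen after their values were seen. The alternatives were pseudocounts of 0.1 and 10, a filter at a mean value of 10, quantile normalization, TMM factors, no trend, the block, edgeR, DESeq2 and leaving out libraries or pairs. Promoters were scanned on both strands in Python 3.11.15.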

Additional observations from a re-analysis of the deposited data

How the results depend on the processing

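Without the replicate block, 0 Wnt genes were called in any setting, including each library left out in turn. With the block, 1 was called, Dkk3, in limma, edgeR and DESeq2 and with TMM factors, the last chosen after seeing the data, and without a pair the number was between 0 and 1. Of all genes, 29 were called with the block in limma, 315 in edgeR, 133 in DESeq2 and 32 with TMM factors, and 1 in DESeq2 without the block, and between 0 and 59 when a library or pair was left out. Of the other pathway genes, 1 was called by edgeR and by DESeq2 with the block. The block changed no other call of a Wnt gene.

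Genes higher in MICs in every pair numbered 9, 8 with a filter at a mean value of 10 (without Wnt2), 7 with TMM factors (without Fzd7 and Wnt4) and 6 with quantile normalization (without Fzd7, Wif1 and Wnt4). Genes lower numbered 4, and 5 with TMM factors, which added Rnf43. Counts over 2 pairs were made after seeing the data, and there fewer pairs had to share a direction. Without pair 1, 14 genes were higher and 6 lower, beside 19.1% and 27% of all genes. Without pair 2 these were 18 and 7, beside 20.3% and 35.8%. Without pair 3 they were 12 and 7, beside 28.6% and 26.8%.

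Of 24 genes, 11 changed sign without 1 library in the fit without the block, 4 without 1 pair in the blocked fit, and 1 in a setting that kept all libraries, Lef1 with a pseudocount of 0.1 (-0.52). With a library or pair left out, the log2 fold change lay between -0.36 and 0.13 for Fzd5, -0.18 and 0.18 for Fzd6, -0.28 and 1.35 for Lef1, -0.47 and 0.0573 for Lrp6, -0.42 and 1.46 for Nkd1, -1.62 and 1.08 for Notum, -0.30 and 1.86 for Sfrp2, -0.0182 and 1.13 for Wif1, -0.38 and 0.82 for Wnt4, -0.30 and 1.23 for Wnt5a, -0.30 and 0.90 for Wnt5b, and -0.59 and 0.0071 for Wnt7b. In the blocked fit, Lrp6 reached 0.0478 without pair 1, Fzd6 -0.0792 without pair 2, and Lef1 -0.1891 and -0.2166 without pairs 1 and 3. Wnt5b, Wnt5a and Wnt4 changed sign only without 1 library in the fit without the block. With the block and a pair left out, they lay between 0.294 and 0.302, 0.26 and 0.69, and 0.09 and 0.26. The other 12 genes, which kept their sign, lay without 1 library in the fit without the block between -0.89 and -0.19 for Axin2, 0.05 and 1.56 for Dkk2, 0.68 and 3.62 for Dkk3, 0.05 and 0.25 for Fzd7, -0.95 and -0.19 for Fzd9, -0.47 and -0.08 for Lrp5, -0.53 and -0.15 for Rnf43, -0.61 and -0.14 for Sfrp1, -0.30 and -0.06 for Tcf7, 0.49 and 1.98 for Wnt10b, 0.07 and 0.49 for Wnt11, and -0.71 and -0.12 for Znrf3. The cause was not tested. With at most 6 reads a library, no difference of Wnt1, Wnt2, Wnt9b or Sfrp4 was detectable.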
